A study of Mus musculus with 12 samples.

Results

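The members described here are the transcripts encoded in the mouse mitochondrial genome, taken as every gene of the deposited tables whose identifier maps to a symbol that starts with mt-. There are 37 of them, 13 mRNAs, 2 rRNAs and 22 tRNAs, among 32199 genes in the table of the PAD4 set and 31719 in that of the IL-33 set, and all 37 are listed in both. The series measured kidney RNA from 12 male mice in 4 groups of 3, and the labels call the 3 libraries of a group separate biological replicates. Wild-type C57BL/6 and Padi4 knockout mice form the PAD4 set, and further wild-type C57BL/6 and Il33 knockout mice form the IL-33 set. Each set has its own wild-type libraries, and the labels give the sets as 2 batches. All groups, the wild type included, went through the same injury model, contrast-induced acute kidney injury: at 8 weeks of age 1 kidney was taken out, and after 3 weeks of recovery and 24 h without water the mice were given furosemide, a loop diuretic, and 20 min later iodixanol, an iodinated contrast agent, into a tail vein. The remaining kidney was collected 24 h after the contrast agent. No group without contrast agent is among the libraries analysed here, and the labels do not say how the knockout alleles were made or whether they act in all cells.

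The mitochondrial genome is a small circular DNA that encodes core subunits of the respiratory chain and ATP synthase together with the rRNAs and tRNAs needed to translate them. It is transcribed from both strands into long precursors, most of whose mRNAs and rRNAs are bordered by tRNAs, and enzymes that cut at both ends of each tRNA release the separate RNAs. Most mitochondrial mRNAs then receive a short poly(A) tail, whereas mature tRNAs end in CCA and carry none. Nuclear genes supply the RNA polymerase, the processing enzymes and the other respiratory chain subunits. The tubules of the kidney, the proximal tubule above all, are rich in mitochondria. PAD4, the product of Padi4, converts arginines of histones to citrulline, a step in the release of neutrophil extracellular traps, and IL-33 is an alarmin cytokine.

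Values are FPKM (fragments per kilobase of transcript and 1000000 mapped fragments) from poly(A)-selected, strand-specific libraries, so the tRNA values belong to whatever tRNA sequence that selection kept and not to the pool of mature tRNA. Each knockout was compared with the wild type of its own table by limma on log2(FPKM + 1), as knockout minus wild type, and a call is an adjusted p below 0.05 over all genes tested. Levels were not compared between the tables, whose FPKM sums per library differed (700601 to 812981 in the PAD4 set and 385124 to 420279 in the IL-33 set). Padi4 was at 0.704, 1.06 and 1.67 FPKM among wild-type and 0.217, 0.497 and 0.187 FPKM among PAD4 knockout libraries (limma adjusted p = 0.0147). Il33 was at 1.71, 1.13 and 3.64 FPKM among wild-type libraries and 1.14, 0.616 and 1.02 FPKM among those labelled IL-33 knockout, and that difference did not pass (limma adjusted p = 0.099), so these libraries are called by their label. Il33 was lower in the PAD4 knockout, at 3.57, 5.29 and 3.28 FPKM among wild-type and 0.889, 1.58 and 1.28 FPKM among PAD4 knockout libraries (limma adjusted p = 0.00208). Defining markers of the proximal tubule were present in every library, with summed levels of 5149 FPKM or more in the PAD4 set and 12598 FPKM or more in the IL-33 set.

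The 8 tRNAs that passed the test in either comparison are shown first, because they carry most of the calls among the members. Sequences run 5′ to 3′ as transcribed, in DNA letters, from the GENCODE M21 transcripts (GRCm38), and capitals mark the anticodon.
mt-Tf: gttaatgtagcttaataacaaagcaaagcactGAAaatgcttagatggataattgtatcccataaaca
mt-Ti: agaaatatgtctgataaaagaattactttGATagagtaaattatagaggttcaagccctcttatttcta
mt-Tq: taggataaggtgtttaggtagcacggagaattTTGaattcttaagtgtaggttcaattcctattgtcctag
mt-Tm: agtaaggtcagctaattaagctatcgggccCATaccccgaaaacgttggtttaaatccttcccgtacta
mt-Ts1: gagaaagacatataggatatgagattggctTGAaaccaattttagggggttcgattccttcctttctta
mt-Td: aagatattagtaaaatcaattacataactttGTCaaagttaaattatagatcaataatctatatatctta
mt-Tg: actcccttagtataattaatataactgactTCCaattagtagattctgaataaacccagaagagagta
mt-Tr: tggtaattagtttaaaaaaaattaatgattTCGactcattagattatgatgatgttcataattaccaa
In the annotation mt-Tf, for phenylalanine, is the first gene of the transcribed region and precedes mt-Rnr1. The isoleucine, glutamine and methionine tRNAs mt-Ti, mt-Tq and mt-Tm form a cluster between mt-Nd1 and mt-Nd2, with mt-Tq on the opposite strand. The serine tRNA mt-Ts1 overlaps the end of mt-Co1 by 3 nt on the opposite strand and is followed by the aspartate tRNA mt-Td and mt-Co2. The glycine tRNA mt-Tg lies between mt-Co3 and mt-Nd3, and the arginine tRNA mt-Tr between mt-Nd3 and mt-Nd4l. All 22 tRNAs are 59 to 75 nt long, so an FPKM of a tRNA rests on far fewer fragments than the same FPKM of an mRNA, whose lengths are 204 to 1824 nt.

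Of the 37 members, 3 were higher and 3 lower in the PAD4 knockout, and 5 were higher and 1 lower in the libraries labelled IL-33 knockout. Among all genes tested, 8.89% were called higher and 8.79% lower in the PAD4 set, and 22.2% higher and 16.8% lower in the IL-33 set. Per direction these are 3 of 37 members in the PAD4 set, near the shares of all genes, and 5 and 1 of 37 in the IL-33 set, under them, and the counts say nothing particular about the members as a group. Their median change was -0.15 in the PAD4 set, beside 0.02 for all 13986 genes tested, and 0.09 in the IL-33 set, beside 0.04 for all 14513. All 37 passed the filter of a mean of 0.5 FPKM in both tables, mt-Td of the IL-33 set only through its knockout libraries, so its call among the 5 supports nothing about the members.

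Cell type markers moved in the same comparisons, given here as counts called and as the range of the list's summed FPKM in wild type and then in the knockout. In the PAD4 knockout, 11 of 14 tested proximal tubule markers were higher and 0 lower (5149 to 8354 and 10152 to 25940 FPKM), as were 2 of 7 markers of the thick ascending limb (107 to 251 and 147 to 647 FPKM) and 3 of 7 of the collecting duct (91.1 to 127 and 102 to 341 FPKM). Lower there were 14 of 15 colon and gut markers (490 to 716 and 162 to 285 FPKM), 9 of 10 lung markers, 8 of 12 muscle markers (376 to 826 and 75.2 to 299.8 FPKM), 8 of 11 neutrophil and macrophage markers (118 to 302 and 28.4 to 113 FPKM) and 5 of 5 erythroid markers (1303 to 2504 and 599 to 926 FPKM). The remaining lung marker, Napsa, which kidney also expresses, was higher, and with it the lung sums overlapped (469 to 998 and 403 to 918 FPKM). Limma called 0 of 6 podocyte and endothelial markers there, with 1 lower at an unadjusted p under 0.05. No marker of these lists was at 0 in all 6 libraries of the PAD4 set. In the IL-33 set, 10 of 15 proximal tubule markers were higher and 1 lower (14037 to 19111 and 12598 to 15677 FPKM). Higher too were 5 of 7 markers of the thick ascending limb (1629 to 2307 and 2839 to 3773 FPKM), 4 of 7 of the collecting duct (213 to 513 and 456 to 537 FPKM), 2 of 7 podocyte and endothelial markers and 5 of 5 erythroid markers (873 to 1221 and 1501 to 2341 FPKM). Of 8 neutrophil and macrophage markers tested there, 3 were higher and 1 lower (16.3 to 34.6 and 46.4 to 52.6 FPKM), and limma called 0 of 5 muscle markers, with 1 higher at an unadjusted p under 0.05. Lower were 2 of 5 tested gut markers (145 to 412 and 52.8 to 57.1 FPKM), with the gut marker Tff3 at 0 in all libraries, and of 2 tested lung markers Napsa was higher and the other lower. The part of these markers in the members' values was not tested, and in bulk kidney fewer cells of a type and less RNA per cell cannot be told apart.

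The 13 mRNAs encode 7 subunits of complex I, the entry of NADH electrons into the chain, 1 of complex III, 3 of complex IV (cytochrome c oxidase) and 2 of complex V (ATP synthase). Of the 13, 1 was higher in the PAD4 knockout, mt-Nd4l, and 0 were lower, with a median change of -0.04. For the IL-33 set limma called 0 of the 13, with a median of 0.05, and 2 higher (mt-Nd4l and mt-Nd4) and 1 lower (mt-Nd1) at an unadjusted p under 0.05. By level per length, mt-Co1, the catalytic core of cytochrome c oxidase, was the highest of the 13 in all 12 libraries. It was at 92258, 84718 and 73306 FPKM among wild-type and 59428, 79156 and 74841 FPKM among knockout libraries, and in the IL-33 set at 25065, 22462 and 20354 FPKM among wild-type and 20897, 21677 and 22459.8 FPKM among knockout libraries. The groups overlapped in both sets, with changes of -0.23 (95% interval -0.62 to 0.15), adjusted p = 0.425, and -0.06 (95% interval -0.39 to 0.27), adjusted p = 0.774.

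**Figure D1:**
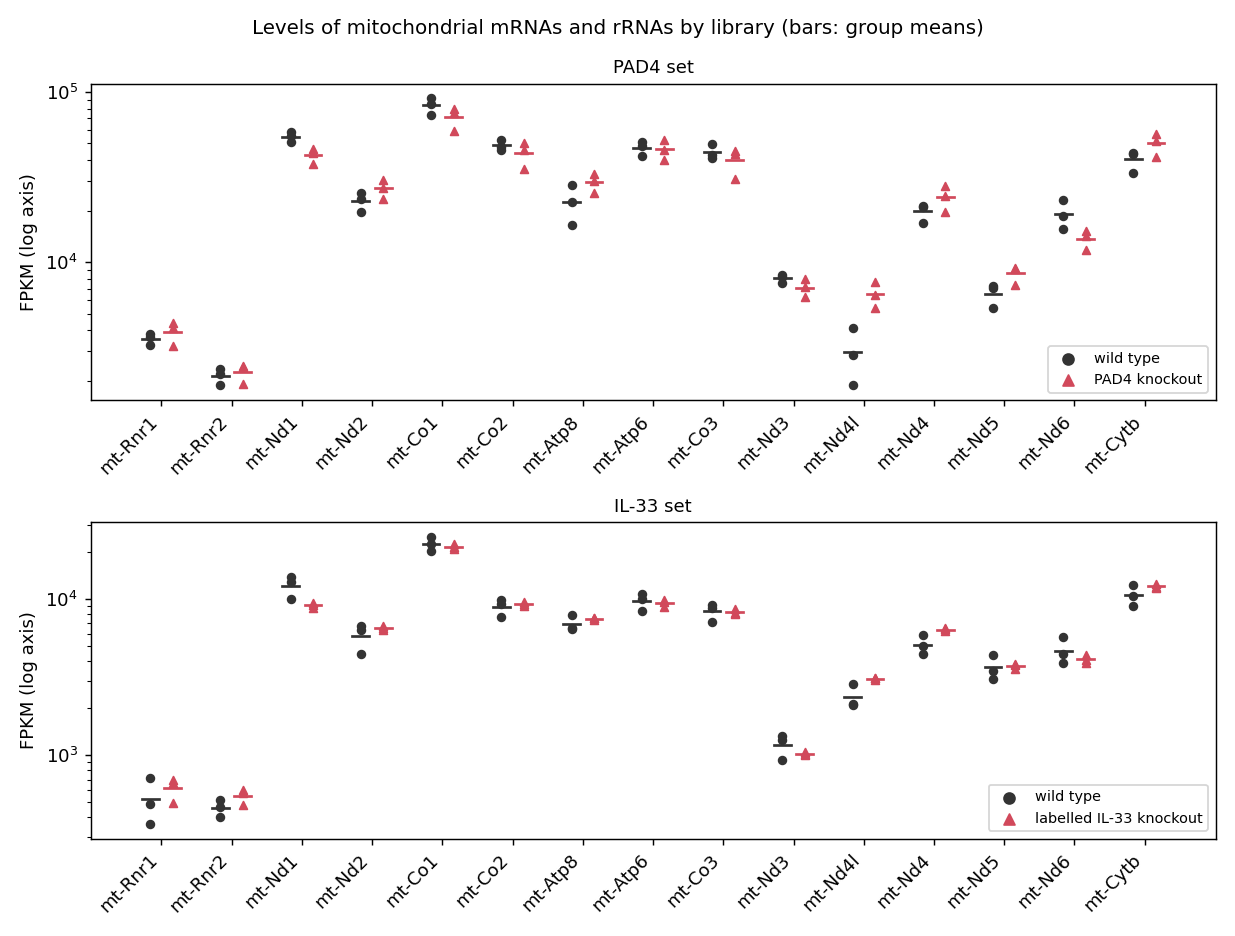
Level of each mitochondrial rRNA and mRNA (FPKM, log axis) in every library of the PAD4 set (top) and the IL-33 set (bottom), in genome order, with wild type as circles, knockout as triangles and group means as bars. In the PAD4 set mt-Nd4l is at 1901 to 4125 FPKM among wild-type and 5364 to 7653 FPKM among knockout libraries, while mt-Co1 overlaps between groups in both sets.

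Among the complex I mRNAs, mt-Nd4l, a small hydrophobic membrane subunit, was the only mRNA that passed. It was at 2860.2, 4125 and 1901 FPKM among wild-type and 5364, 6431 and 7653 FPKM among knockout libraries in the PAD4 set, where all 3 knockout libraries lay above all 3 wild-type libraries (1.19 ± 0.30 (SE), adjusted p = 0.00954). The call was lost without wild-type library 1 or 3, with no filter on level, with median-of-ratios scaling and with quantile normalization. Among the IL-33 libraries mt-Nd4l was at 2856, 2123 and 2104 FPKM among wild-type and 3149, 3028 and 3119 FPKM among knockout libraries, again without overlap, and missed the threshold (0.41 ± 0.14 (SE), adjusted p = 0.0526). Its sequence is shown because a pseudogene on chromosome 1, Gm10222, is identical to it over 294 of its 297 nt, so reads of both cannot be told apart, with the start codon and the stop codon in capitals (GENCODE M21).
mt-Nd4l: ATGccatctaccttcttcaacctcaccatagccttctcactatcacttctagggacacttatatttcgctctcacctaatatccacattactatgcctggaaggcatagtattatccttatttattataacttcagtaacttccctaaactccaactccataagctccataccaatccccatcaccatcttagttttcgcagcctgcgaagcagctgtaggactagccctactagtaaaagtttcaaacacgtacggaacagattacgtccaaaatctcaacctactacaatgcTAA
Gm10222 was called higher in the PAD4 knockout (1.19 ± 0.30 (SE), adjusted p = 0.0104) and in the IL-33 set (0.41 ± 0.14 (SE), adjusted p = 0.0498). The end of mt-Nd4l overlaps the start of mt-Nd4 by 7 nt, and mt-Nd4, a proton-pumping subunit, was at 21159, 21487 and 17151 FPKM among wild-type and 19705, 24636 and 27996 FPKM among knockout libraries in the PAD4 set (0.27 (95% interval -0.19 to 0.72), adjusted p = 0.447). mt-Nd4 of the IL-33 set was at 5866, 5011 and 4485 FPKM among wild-type and 6425, 6212 and 6485 FPKM among knockout libraries, with every knockout library above every wild-type library (0.32 (95% interval 0.02 to 0.63), adjusted p = 0.0865).

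mt-Nd1, the subunit next to the quinone site of complex I and the first mRNA after the rRNAs, had lower values in the knockouts. It was at 58225, 54998 and 50766 FPKM among wild-type and 37831, 43592 and 46070.0 FPKM among knockout libraries in the PAD4 set and at 13852, 12783 and 9947 FPKM among wild-type and 9154, 8773 and 9456 FPKM among knockout libraries in the IL-33 set. Its knockout libraries lay below the wild type in both sets, without a call (-0.37 (95% interval -0.75 to 0.02), adjusted p = 0.19 in the PAD4 set and -0.40 (95% interval -0.76 to -0.04), adjusted p = 0.0728 in the IL-33 set). Rescaling each library to the same FPKM sum called it lower in both sets. mt-Nd6, the only mRNA on the opposite strand, was at 23123, 15709 and 18648 FPKM among wild-type and 11807, 15249.6 and 14381 FPKM among knockout libraries in the PAD4 set (-0.46 (95% interval -0.94 to 0.02), adjusted p = 0.177), with all knockout libraries below wild type. It overlapped in the IL-33 set, at 5707, 4441 and 3873 FPKM among wild-type and 3877, 4057 and 4399 FPKM among knockout libraries (-0.17 (95% interval -0.54 to 0.20), adjusted p = 0.433). The sign of that second change turned under quantile normalization (0.08). mt-Nd6 overlaps the end of mt-Nd5 by 14 nt on the other strand, and the counting setting for strand is not given in the sources used here.

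mt-Cytb, the cytochrome b of complex III and the only mitochondrially encoded subunit of that complex, was at 43947, 43171 and 33603 FPKM among wild-type and 41443, 51543 and 56879.6 FPKM among knockout libraries in the PAD4 set and at 12279.8, 10436 and 9070.3 FPKM among wild-type and 12495, 11809 and 11916 FPKM among knockout libraries in the IL-33 set. Neither passed (0.31 (95% interval -0.11 to 0.73), adjusted p = 0.317 and 0.20 (95% interval -0.14 to 0.54), adjusted p = 0.314). mt-Atp6, the proton channel subunit of ATP synthase, was at 51052, 48110.0 and 42018 FPKM among wild-type and 39731, 45758 and 52641 FPKM among knockout libraries in the PAD4 set and at 10852, 10019 and 8379 FPKM among wild-type and 8947, 9565 and 9824 FPKM among knockout libraries in the IL-33 set. Its changes were close to 0 in both (-0.04 (95% interval -0.44 to 0.37), adjusted p = 0.932 and -0.04 (95% interval -0.36 to 0.29), adjusted p = 0.847), and their sign turned with the scaling. The intervals of these 2 genes reach from -0.44 to 0.73 on the log2 scale. For the other mRNAs (mt-Nd2, mt-Nd3, mt-Nd5, mt-Co2, mt-Co3 and mt-Atp8) the changes lay from -0.19 to 0.42 (PAD4 set) and from -0.17 to 0.19 (IL-33 set).

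The proportions among the 13 mRNAs do not depend on how a library is scaled, since each is a percent of the same library's mitochondrial mRNA FPKM. They are given as a description with no test, and they are not independent because they sum to 100%. In the PAD4 set the groups did not overlap for 10 of the 13, 6 higher and 4 lower in the knockout, and in the IL-33 set for 8, 4 higher and 4 lower. Of all genes tested, expressed over the same mRNA sum, 11.5% did not overlap and were higher and 10.9% lower in the PAD4 set, and 23.4% and 21.1% in the IL-33 set. These shares are not a like background. The 13 mRNAs make up the sum they are divided by, whereas for nuclear genes the division adds the variation of that sum between libraries. How much of the contrast comes from this was not tested. The 8 mRNAs without overlap in the IL-33 set had no overlap and the same direction in the PAD4 set. The share of all genes that did so in both sets was not computed, so this count has no background beside it. Of these mRNAs, mt-Nd4l, mt-Nd4, mt-Co1 and mt-Nd3 have nuclear copies, given below, and their level is uncertain. mt-Nd2, mt-Nd4l, mt-Nd4 and mt-Cytb took a larger share in the knockouts, and mt-Nd1, mt-Co1, mt-Nd3 and mt-Nd6 a smaller one.

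mt-Nd1 took 12.7%, 12.8% and 13.5% among wild-type and 11%, 10.2% and 10.1% among knockout libraries in the PAD4 set and 12%, 12.4% and 11.3% among wild-type and 9.07%, 8.68% and 9% among knockout libraries in the IL-33 set. Every knockout library lay below every wild-type library of its set. mt-Cytb took 9.61%, 10.04% and 8.95% among wild-type and 12%, 12% and 12.5% among knockout libraries in the PAD4 set and 10.6%, 10.2% and 10.3% among wild-type and 12.4%, 11.7% and 11.3% among knockout libraries in the IL-33 set, in the opposite direction. mt-Nd4 went from 4.73% ± 0.231 to 5.87% ± 0.235 in the PAD4 set (SD, n = 3 per group) and from 5.01% ± 0.113 to 6.23% ± 0.121 in the IL-33 set. mt-Nd4l went from 0.697% ± 0.234 to 1.58% ± 0.0916 and from 2.31% ± 0.21 to 3.03% ± 0.0807 in the same order. The mt-Co1 share was lower by smaller steps relative to its size, from 19.8% ± 0.339 to 17.4% ± 1.02 and from 22.2% ± 0.764 to 21.2% ± 0.409. Summed by complex, complex IV mRNAs went from 42.0% ± 1.51 to 37.6% ± 1.40 in the PAD4 set and from 39.1% ± 0.929 to 38.4% ± 0.663 in the IL-33 set, where the groups overlapped. The complex I sum overlapped in both sets, and its members differed in direction. mt-Nd5 and mt-Atp8 had no overlap in the PAD4 set only, and mt-Atp6, mt-Co2 and mt-Co3 overlapped in both.

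**Figure D2:**
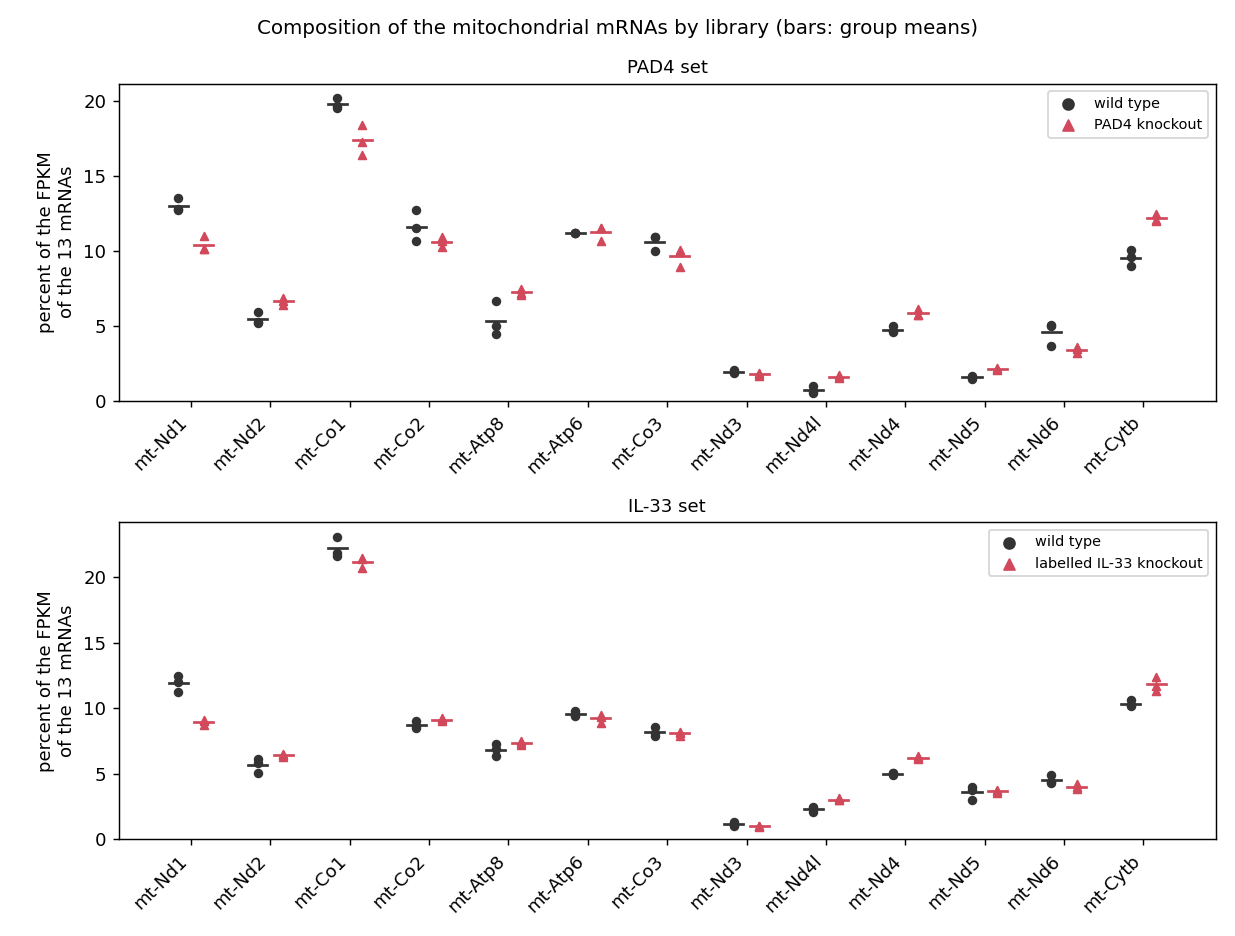
Share of each mRNA in the FPKM of the 13 mitochondrial mRNAs (percent, axis from 0) in every library, PAD4 set at the top and IL-33 set at the bottom, wild type as circles, knockout as triangles, group means as bars. In both sets the mt-Nd1 share is lower in the knockout libraries (10.41% and 8.92% on average, against 13.02% and 11.89% in wild type) and the mt-Cytb share is higher.

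When the test was run on FPKM divided by the mitochondrial mRNA sum, a setting added after seeing the data, mt-Atp8, mt-Cytb and mt-Nd4l were called higher and mt-Nd1 and mt-Nd6 lower among the mRNAs of the PAD4 set. At the same setting mt-Nd4 and mt-Nd4l were called higher and mt-Nd1 lower in the IL-33 set. Both sets shared the calls of mt-Nd4l and mt-Nd1 at that setting. Of all genes, 875 were called higher and 807 lower of 14050 in the PAD4 set, and 2160 and 1723 of 14547 in the IL-33 set. The mRNAs make up the sum they are divided by. These calls therefore restate the proportions above and are no separate support for them.

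The rRNAs of the small and large mitochondrial ribosomal subunits, mt-Rnr1 (12S) and mt-Rnr2 (16S), took a small share of these poly(A)-selected libraries, 0.712% to 0.885% of the FPKM sum in the PAD4 set and 0.197% to 0.326% in the IL-33 set. mt-Rnr1 was at 3634, 3815 and 3253 FPKM among wild-type and 3237, 4383 and 4121 FPKM among knockout libraries in the PAD4 set and at 362, 716 and 486 FPKM among wild-type and 493, 695 and 667 FPKM among knockout libraries in the IL-33 set. mt-Rnr2 was at 2369.9, 2214 and 1895 FPKM among wild-type and 1936, 2444 and 2466 FPKM among knockout libraries and at 465, 516 and 404 FPKM among wild-type and 478, 601 and 577 FPKM among knockout libraries in the same order. The groups overlapped for both rRNAs in both sets, with changes of 0.12 (95% interval -0.42 to 0.67), adjusted p = 0.811 and 0.08 (95% interval -0.50 to 0.65), adjusted p = 0.895 in the PAD4 set. The IL-33 set gave 0.29 (95% interval -0.29 to 0.86), adjusted p = 0.39, and 0.26 (95% interval -0.04 to 0.56), adjusted p = 0.154.

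The glycine tRNA mt-Tg had the largest change of all members in both comparisons. It was at 241, 235 and 101 FPKM among wild-type and 8.36, 18.9 and 8.47 FPKM among knockout libraries in the PAD4 set, a mean 16.2 times as high in wild type (-3.90 ± 0.39 (SE), adjusted p = 8.45e-06). The IL-33 set had it at 25.4, 23.8 and 13.9 FPKM among wild-type and 1.59, 0.362 and 0.396 FPKM among knockout libraries, a mean 26.8 times as high in wild type (-3.65 ± 0.31 (SE), adjusted p = 0.000156). Every knockout library lay below every wild-type library in both sets. The call held without any single library in either set, and it was lost only in the PAD4 set with no filter on level, where 0 of 32199 genes passed (limma adjusted p = 0.0707 for mt-Tg). FPKM times the length of 68 nt gives 6.87 to 16.4 fragments of 1000000 mapped among wild-type and 0.569 to 1.29 among knockout libraries in the PAD4 set. For the IL-33 set the product is 0.943 to 1.73 fragments of 1000000 mapped among wild-type and 0.0246 to 0.108 among knockout libraries. These are conversions and not read counts, and by them the lowest values would be those of few fragments.

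Neither gene that flanks mt-Tg was called. mt-Co3, a structural subunit of cytochrome c oxidase just before it, changed by -0.18 (95% interval -0.61 to 0.25), adjusted p = 0.604, and by -0.01 (95% interval -0.33 to 0.31), adjusted p = 0.96. mt-Nd3, a small complex I subunit just after it, changed by -0.19 (95% interval -0.68 to 0.31), adjusted p = 0.656, and by -0.17 (95% interval -0.51 to 0.16), adjusted p = 0.372. Relative to the mean FPKM of these 2 neighbours, mt-Tg was at 0.828%, 0.922% and 0.416% among wild-type and 0.0452%, 0.0751% and 0.0318% among knockout libraries in the PAD4 set. The same percent was 0.488%, 0.469% and 0.344% among wild-type and 0.0354%, 0.00782% and 0.00824% among knockout libraries in the IL-33 set. Of the members, mt-Tg was the only one called lower in both comparisons.

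**Figure D3:**
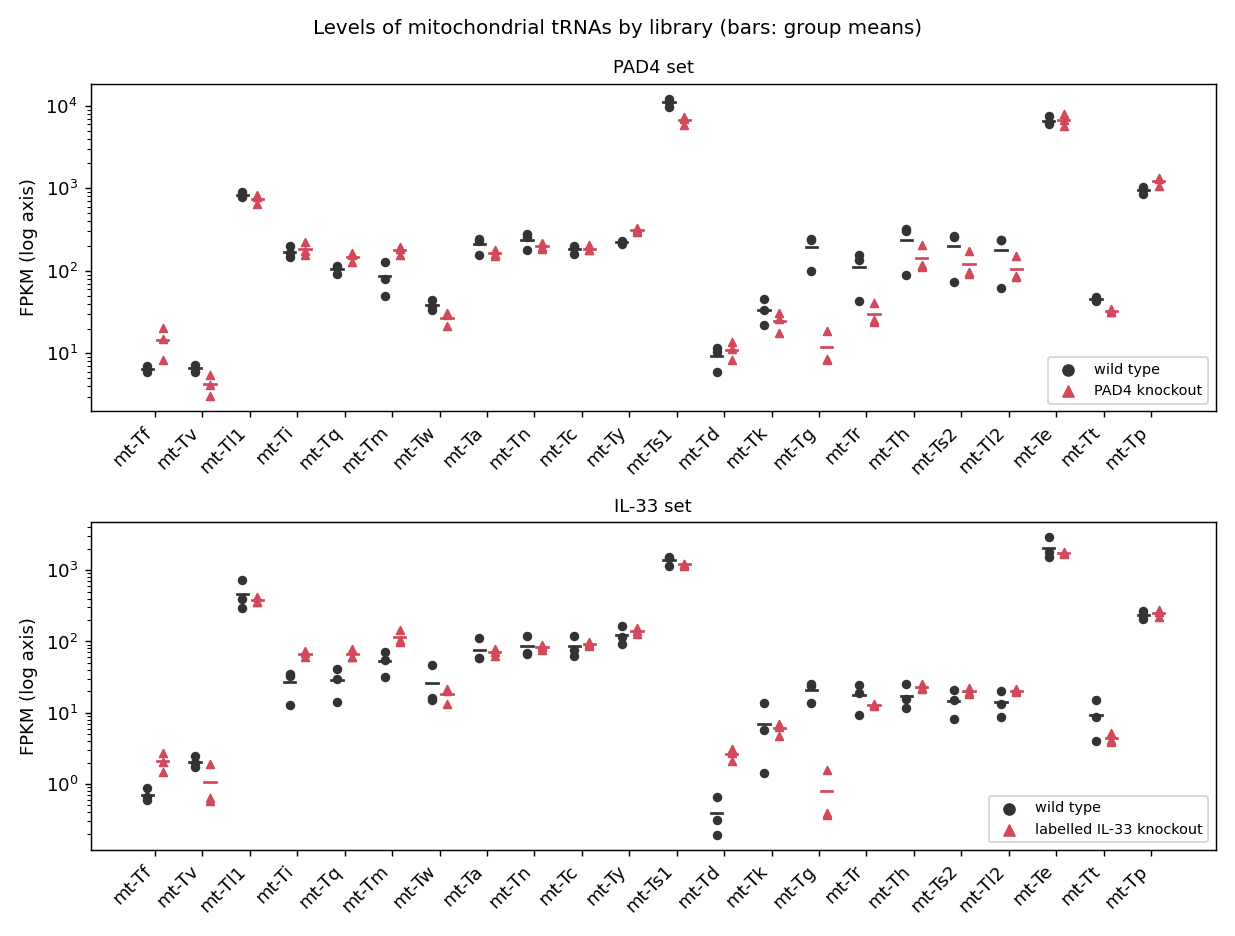
Level of each mitochondrial tRNA gene (FPKM, log axis) in every library, in genome order, for the PAD4 set (top) and the IL-33 set (bottom), with wild type as circles, knockout as triangles and group means as bars. mt-Tg stands apart in both sets, at 101 to 241 FPKM among wild-type and 8.36 to 18.9 FPKM among knockout libraries of the PAD4 set, and wild-type library 3 of that set is low for the neighbouring mt-Tr, mt-Th, mt-Ts2 and mt-Tl2.

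The arginine tRNA mt-Tr, which follows mt-Nd3, also fell in the PAD4 set. It was at 135, 154 and 43.8 FPKM among wild-type and 25.1, 40.4 and 24.1 FPKM among knockout libraries (-1.71 ± 0.41 (SE), adjusted p = 0.00783), and wild-type library 3 lay just above the highest knockout library. The call was lost without wild-type library 1, with no filter and with median-of-ratios scaling. For the IL-33 set mt-Tr was at 24.2, 18.9 and 9.16 FPKM among wild-type and 13.5, 12.3 and 12.8 FPKM among knockout libraries with overlap (-0.32 ± 0.30 (SE), adjusted p = 0.43). The 3 tRNAs of the next cluster, mt-Th, mt-Ts2 and mt-Tl2, were likewise low in wild-type library 3 of the PAD4 set. mt-Th, for histidine, was at 318, 305 and 89 FPKM among wild-type and 118, 206 and 110.0 FPKM among knockout libraries and did not pass (-0.56 ± 0.43 (SE), adjusted p = 0.419). None of the 3 passed in the IL-33 set. The serine tRNA mt-Ts1 was at 12242, 9753 and 10986 FPKM among wild-type and 5879, 7241 and 6899 FPKM among knockout libraries in the PAD4 set without overlap (-0.72 ± 0.24 (SE), adjusted p = 0.0408), a call that was lost on leaving out any 1 of the 6 libraries, with pseudocounts of 0.1 and 0.5, with no filter, with median-of-ratios scaling and with a replicate block. mt-Ts1 of the IL-33 set was at 1489, 1510.4 and 1132 FPKM among wild-type and 1158, 1241 and 1222 FPKM among knockout libraries (-0.18 ± 0.13 (SE), adjusted p = 0.315).

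In both comparisons 2 tRNAs were called higher, a count with no share over all genes computed beside it. The phenylalanine tRNA mt-Tf was at 6.47, 7.13 and 5.91 FPKM among wild-type and 8.43, 15 and 20.1 FPKM among knockout libraries in the PAD4 set (0.97 ± 0.30 (SE), adjusted p = 0.0315) and at 0.592, 0.865 and 0.663 FPKM among wild-type and 1.49, 2.73 and 2.01 FPKM among knockout libraries in the IL-33 set (0.83 ± 0.17 (SE), adjusted p = 0.00626). The methionine tRNA mt-Tm, which both starts and extends mitochondrial proteins, was at 80.2, 127 and 49.7 FPKM among wild-type and 158, 183 and 196 FPKM among knockout libraries in the PAD4 set (1.15 ± 0.36 (SE), adjusted p = 0.0322) and at 31.4, 55.5 and 72.1 FPKM among wild-type and 144, 104 and 97.4 FPKM among knockout libraries in the IL-33 set (1.16 ± 0.29 (SE), adjusted p = 0.0163). In each case every knockout library lay above every wild-type library. Both calls of the PAD4 set were lost without wild-type library 1, wild-type library 3 or PAD4 knockout library 3. They were lost too with no filter, median-of-ratios scaling, quantile normalization, a replicate block and mitochondrial mRNA sum scaling, and that of mt-Tm with array weights. With quantile normalization the members called higher in the PAD4 set were mt-Nd5 and mt-Cytb in place of mt-Tf, mt-Tm and mt-Nd4l. mt-Tf of the IL-33 set kept its call without any single library, and mt-Tm lost it without knockout library 1. At 0.592 to 2.73 FPKM over 68 nt, the mt-Tf values of the IL-33 set would also be those of few fragments. With a mean of at least 2 FPKM mt-Tf was not tested there.

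The neighbours of mt-Tm in the cluster between mt-Nd1 and mt-Nd2 were higher as well in the IL-33 set. mt-Ti was at 12.7, 35.4 and 32.7 FPKM among wild-type and 72.6, 60.5 and 69.3 FPKM among knockout libraries (1.41 ± 0.34 (SE), adjusted p = 0.014) and mt-Tq, which overlaps mt-Ti by 3 nt on the opposite strand, at 14.3, 30.2 and 41.3 FPKM among wild-type and 78.9, 60.2 and 60.3 FPKM among knockout libraries (1.30 ± 0.34 (SE), adjusted p = 0.0189). The groups did not overlap for these tRNAs, and mt-Tq lost its call without knockout library 1. With no filter the IL-33 calls of mt-Ti, mt-Tq and mt-Tm were lost. mt-Ti of the PAD4 set was at 199, 164 and 147 FPKM among wild-type and 155, 223 and 173 FPKM among knockout libraries and overlapped (0.11 ± 0.32 (SE), adjusted p = 0.872), and mt-Tq was at 113, 116 and 91.6 FPKM among wild-type and 129, 163 and 155 FPKM among knockout libraries without overlap or call (0.48 ± 0.32 (SE), adjusted p = 0.333). The aspartate tRNA mt-Td was at 0.194, 0.309 and 0.665 FPKM among wild-type and 3.05, 2.11 and 2.69 FPKM among knockout libraries in the IL-33 set (1.39 ± 0.17 (SE), adjusted p = 0.000672). Because mt-Td was tested there only through its knockout libraries, its test without a filter is the one to read (limma adjusted p = 0.0103), and its change was 2.57 with a pseudocount of 0.1. Its levels are the lowest of these, by FPKM times length 0.0136 to 0.0466 fragments of 1000000 mapped among wild-type and 0.148 to 0.214 among knockout libraries. mt-Td of the PAD4 set was at 11.7, 10.4 and 5.94 FPKM among wild-type and 8.33, 13.6 and 11.3 FPKM among knockout libraries and overlapped (0.24 ± 0.30 (SE), adjusted p = 0.643).

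Per length, the tRNA genes spanned more than 3 orders of magnitude in each set. mt-Ts1 and the glutamate tRNA mt-Te, both on the strand opposite most mRNAs, were the highest in all 12 libraries. mt-Te was at 7519, 6080.0 and 6271 FPKM among wild-type and 5758, 7841 and 6727 FPKM among knockout libraries in the PAD4 set and at 2899, 1786 and 1514 FPKM among wild-type and 1786, 1729 and 1709 FPKM among knockout libraries in the IL-33 set. It reached 18.9% to 24.0% of the mean FPKM of its neighbours mt-Nd6 and mt-Cytb in the PAD4 set, where the groups overlapped. In the IL-33 set mt-Te reached 32.2%, 24.0% and 23.4% among wild-type and 21.8%, 21.8% and 20.9% among knockout libraries, without overlap. mt-Ts1 reached 16.9%, 14.9% and 18.2% among wild-type and 12.4%, 11.6% and 11.1% among knockout libraries of its neighbours mt-Co1 and mt-Co2 in the PAD4 set. The percent was 8.53%, 9.51% and 8.09% among wild-type and 7.73%, 8.01% and 7.62% among knockout libraries in the IL-33 set, again without overlap. This was not particular to mt-Ts1. By the same measure mt-Tv, mt-Tg and mt-Tt were also lower without overlap in both sets, and mt-Tf, mt-Tq, mt-Tm and mt-Td higher. No share over all genes was computed for this measure, so the number of tRNAs without overlap has no background beside it. The remaining tRNAs that did not pass had changes from -0.57 to 0.49 (PAD4 set) and from -0.77 to 0.57 (IL-33 set).

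**Figure D4:**
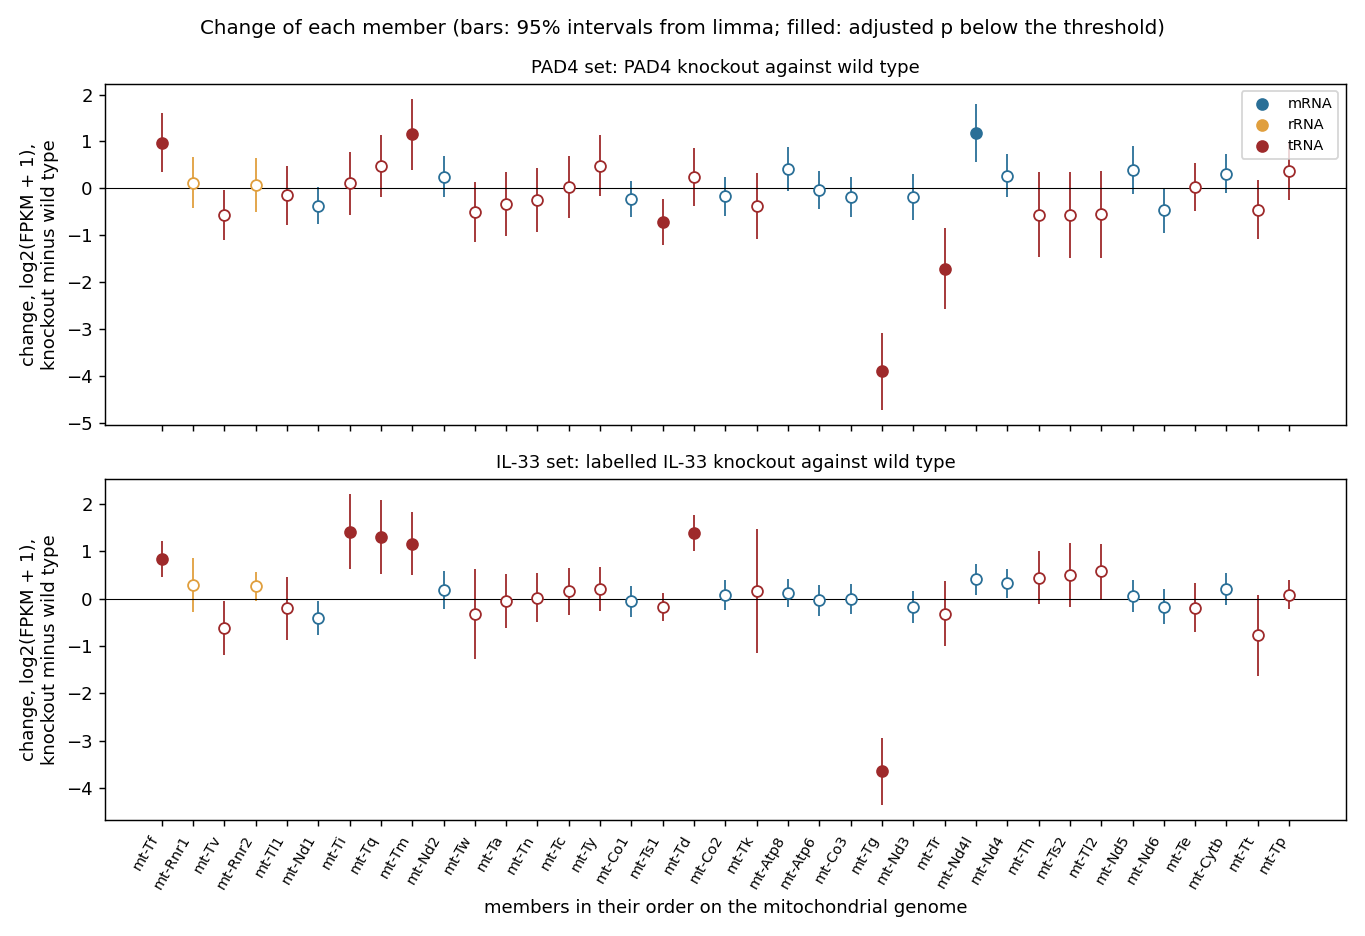
Change of each of the 37 members on the log2(FPKM + 1) scale, knockout minus wild type, with 95% intervals from limma, in genome order, for the PAD4 set (top) and the IL-33 set (bottom). Filled points passed the adjusted p threshold, and mt-Tg lies lowest in both sets (-3.90 and -3.65).

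Neither comparison uses the other's wild-type libraries, so the changes of both can be set side by side. Over the 37 members they had Pearson's r = 0.81 and the same sign for 30 members (81.1%), whereas over the 13010 genes tested in both tables r was 0.40 with 62.4% of the same sign. Without mt-Tg r was 0.53 over 36 members, 29 of them of the same sign. Over the 13 mRNAs r was 0.82, with 12 of the same sign. Genes of a library are not independent, and within each table overlapping and neighbouring genes share precursors, so these are descriptions with no test. Of the 9 members called in either comparison, mt-Tf and mt-Tm were higher and mt-Tg lower in both. The share of all genes called in the same direction in both comparisons was not computed, so these shared calls have no background beside them.

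The test of the difference between the comparisons, PAD4 change minus IL-33 change, called 1 member, mt-Td (-1.14 ± 0.33 (SE), adjusted p = 0.0343). The change of mt-Td was 0.24 in the PAD4 set and 1.39 in the IL-33 set. Of the 13010 genes tested, 6.23% were called higher and 6.18% lower in that difference. mt-Td entered that test through the IL-33 knockout libraries, and it was not tested with a mean of at least 2 FPKM. Its call was lost on leaving out any of 8 of the 12 libraries, and its value then lay between -0.97 and -1.17. mt-Ti missed the threshold (-1.31 ± 0.43 (SE), adjusted p = 0.0651), as did mt-Tr (-1.39 ± 0.58 (SE), adjusted p = 0.136) and mt-Nd4l (0.78 ± 0.36 (SE), adjusted p = 0.177). For mt-Tg the difference was -0.25 ± 0.54 (SE), adjusted p = 0.811. With median-of-ratios scaling 0 members were called in the difference, and the share of higher among all calls of that difference went from 50.2% to 60.5%.

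As a whole, the members took 59.97%, 59.4% and 55.5% of the FPKM sum in the wild-type libraries of the PAD4 set and 52.0%, 59.1% and 59.4% in the knockout (exact two-sided permutation p = 0.6). The members of the IL-33 set took 29.2%, 26.0% and 24.1% among wild-type and 27.0%, 26.9% and 27.7% among knockout libraries (exact permutation p = 0.7). The groups overlapped in both sets, and 3 libraries against 3 cannot give a p under 0.1. The 22 tRNAs together took 3.00%, 2.61% and 2.85% among wild-type and 2.15%, 2.52% and 2.17% among PAD4 knockout libraries (exact permutation p = 0.1, the smallest possible). In the IL-33 set they took 1.46%, 1.08% and 0.949% among wild-type and 1.13%, 1.08% and 1.07% among knockout libraries, with overlap (exact permutation p = 0.9). That sum is mostly mt-Ts1 and mt-Te. FPKM weights short genes up. From FPKM and the length of each member, the share of mapped fragments came to 33.8% to 45.5% in the PAD4 set and 9.06% to 11.8% in the IL-33 set.

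**Figure D5:**
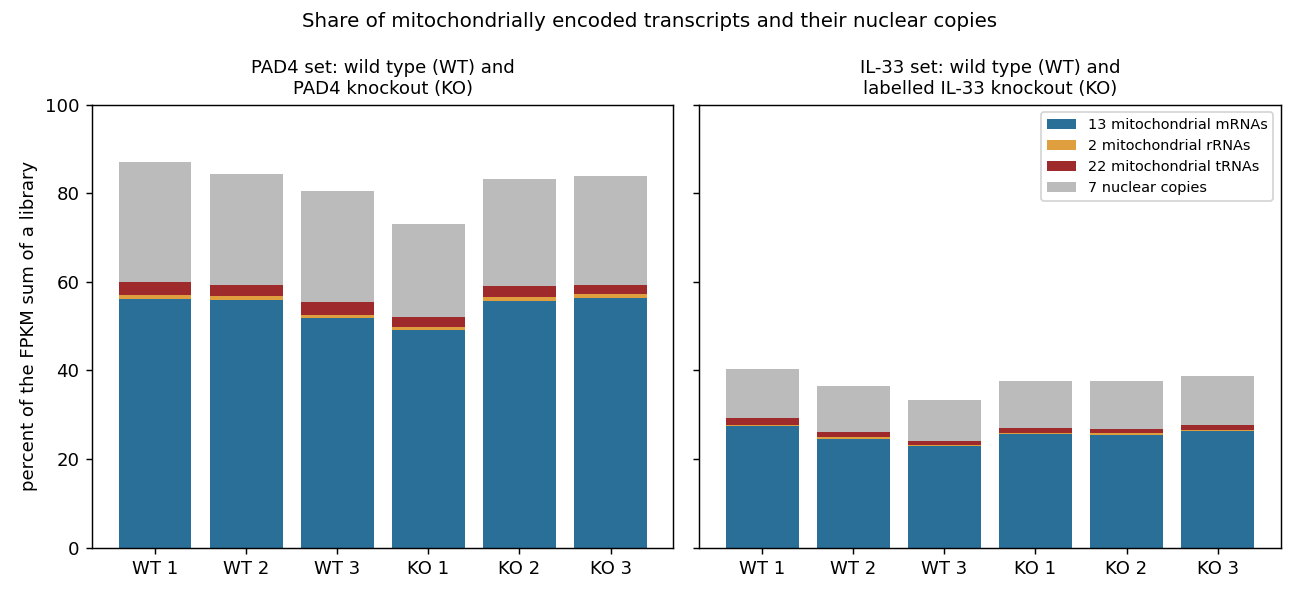
Share of the FPKM sum of each library (percent, stacked bars from 0) taken by the 13 mRNAs, the 2 rRNAs, the 22 tRNAs and the 7 nuclear copies, PAD4 set on the left and IL-33 set on the right, with WT for wild type and KO for knockout. Members and copies together take 73.1% to 87.0% in the PAD4 set and 33.4% to 40.3% in the IL-33 set, and the groups overlap in both.

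The nuclear genome holds copies of mitochondrial sequence, and 7 pseudogene models on chromosome 1 of GENCODE M21 match members almost exactly. Gm10925 (mt-Atp6), Gm28661 (mt-Co2), Gm28437 (mt-Co3) and Gm10222 (mt-Nd4l) are identical to their member over 98.99% or more of its length, and Gm28438 matches mt-Nd3 with 1 mismatch. Their FPKM was 89.2% to 106.8% of that of the member in every library. Gm28439 covers 63.6% of mt-Nd4 and Gm29216 31.3% of mt-Co1, and these partial copies were at 24.1% to 60.7% and 32.1% to 55.1% of the member. Gm29216 was called lower in the PAD4 knockout (-0.59 ± 0.20 (SE), adjusted p = 0.0498) where mt-Co1 itself was not. Gm28439 was at 5818, 7231 and 4127 FPKM among wild-type and 7529.6, 9439 and 10771 FPKM among knockout libraries in the PAD4 set (0.71 ± 0.27 (SE), adjusted p = 0.0715), and it was higher in the IL-33 set (0.39 ± 0.13 (SE), adjusted p = 0.0492). The copies took a further 21.0% to 27.0% of the FPKM sum in the PAD4 set and 9.35% to 11.1% in the IL-33 set. The absolute level of these 7 members is uncertain, because how the authors' counting treated reads that match both is not given in the sources used here. With each copy's FPKM added to its member, the members called were the same 6 in each set. Among the called members only mt-Nd4l has a copy, and that copy was at 95.3% to 101.8% of its FPKM. Adding it could therefore hardly change the calls, and this setting says nothing about how shared reads were counted.

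Nuclear genes encode the other subunits of the same complexes. In the PAD4 knockout, 15 of 36 complex I genes, 9 of 9 of complex III, 10 of 12 of complex IV and 10 of 15 of complex V were higher and 0 were lower, with medians of 0.92, 2.22, 2.29 and 2.12, and 0 were lower at an unadjusted p under 0.05 by limma. Of all genes tested in that set, 8.89% were called higher and 8.79% lower. Leaving out single libraries gave 10 (without wild-type library 1) to 30 (without PAD4 knockout library 2) for complex I, 9 in each case for complex III, 9 to 11 for complex IV and 9 to 13 for complex V. Ndufs8, an iron-sulfur subunit of complex I, went from 16.7 ± 3.24 to 124 ± 51.3 FPKM (2.76 ± 0.35 (SE), adjusted p = 8.52e-05), and Ndufa6, an accessory subunit, changed by 2.45 (limma adjusted p = 0.000156). Uqcr10 and Uqcrb of complex III changed by 2.76 and 2.67, Cox5b and Cox7b of complex IV by 2.61 and 2.65, and Atp5e and Atp5j2 of ATP synthase by 2.63 and 2.53. The mitochondrial mRNAs of the same complexes had medians between -0.18 and 0.31, with mt-Nd4l the only one called. The proximal tubule markers of these libraries rose in 11 of 14, as given above, and their part in this was not tested.

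Fewer of these nuclear genes were called in the IL-33 set, with 12 of 36 higher for complex I (median 0.21), 4 of 9 for complex III (0.29), 1 of 12 for complex IV (-0.03) and 7 of 15 for complex V (0.31), and 0 lower, also at an unadjusted p under 0.05 by limma. Of all genes tested in that set, 22.2% were called higher and 16.8% lower, so the complex IV count lies under the share called higher. Leaving out single libraries gave 7 (without knockout library 2) to 21 (without wild-type library 2) for complex I and 5 to 11 for complex V, and 2 genes each of complexes I and IV were lower without wild-type library 3. Ndufs1, the largest iron-sulfur subunit of complex I, went from 15.5 ± 1.22 to 30.6 ± 0.764 FPKM (0.94 ± 0.09 (SE), adjusted p = 0.000278), and Ndufb10 changed by 0.72. Uqcrc2 and Cyc1 of complex III changed by 0.51 and 0.48, Atp5a1 and Atp5b, the catalytic core of ATP synthase, by 0.56 and 0.51. Cox7a1, an isoform of a complex IV subunit best known from muscle, was the only complex IV gene called (1.06).

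Of the genes that transcribe mitochondrial DNA, limma called 0 of 11 in the PAD4 set (median 0.42, 2 at an unadjusted p under 0.05) and 4 of 11 were higher in the IL-33 set (median 0.14). The mitochondrial RNA polymerase gene Polrmt was at 3.72, 5.25 and 5.57 FPKM among wild-type and 8.41, 6.42 and 7.06 FPKM among knockout libraries in the PAD4 set (0.51 ± 0.25 (SE), adjusted p = 0.181) and at 5.11, 7.36 and 7.26 FPKM among wild-type and 10.3, 10.7 and 10.3 FPKM among knockout libraries in the IL-33 set (0.61 ± 0.14 (SE), adjusted p = 0.0113). Tfam, which packs mitochondrial DNA and opens its promoters, changed by 0.06 (limma adjusted p = 0.891) in the PAD4 set and rose by 0.26 (limma adjusted p = 0.048) in the IL-33 set, where Mterf2 rose by 0.76. For replication and maintenance of the genome, limma called 0 of 13 in the PAD4 set (3 at an unadjusted p under 0.05), and 4 were higher and 1 lower of 13 in the IL-33 set, with Mpv17 at 1.12 and the carrier gene Slc25a36 at 0.71. Without any 1 of the 3 knockout libraries of the IL-33 set, the higher counts were 1 for transcription and 2 for replication, and without wild-type library 3 replication had 6.

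Among genes that process and stabilise mitochondrial RNA, 1 of 21 was higher in the PAD4 set, Slirp (0.82), which pairs with Lrpprc to protect mitochondrial mRNAs. That count was 0 without wild-type library 1, wild-type library 3 or PAD4 knockout library 1, and 2 without PAD4 knockout library 2. Of the same list 7 of 21 were higher and 1 lower in the IL-33 set, with Lrpprc at 7.36, 8.08 and 8.24 FPKM among wild-type and 13, 12.1 and 12.7 FPKM among knockout libraries (0.61 ± 0.09 (SE), adjusted p = 0.00183) and Ptcd3, a mitoribosome protein, at 0.73. Lrpprc did not pass in the PAD4 set (0.53 ± 0.23 (SE), adjusted p = 0.127). Mtpap, the mitochondrial poly(A) polymerase, whose product bears on what poly(A) selection keeps, did not pass in either set (0.12 ± 0.20 (SE), adjusted p = 0.749 in the PAD4 set and -0.04 ± 0.10 (SE), adjusted p = 0.802 in the IL-33 set).

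Of the tRNA modification genes, limma called 0 of 19 in the PAD4 set (0 at an unadjusted p under 0.05), and 3 were higher and 5 lower of 20 in the IL-33 set. There, Yrdc, of the pathway that adds threonylcarbamoyl to tRNAs, went from 19.6 ± 4.72 to 8.33 ± 0.523 FPKM (-1.12 ± 0.16 (SE), adjusted p = 0.00144) and Qtrt1, a subunit of the queuine transferase, changed by -0.72. The lower count was 3 without knockout library 1, and the higher count 2 without wild-type library 2 or any 1 of the knockout libraries. Of the aminoacyl-tRNA synthetase and amidotransferase genes, 1 of 21 was higher in the PAD4 set, Gatb (0.85, 0 without wild-type library 1 or 3 or PAD4 knockout library 1), and 10 were higher and 1 lower of 22 in the IL-33 set, among them Gatb (0.52). The member that fell was Gars (33.5, 34.2 and 39.3 FPKM among wild-type and 23.3, 25.9 and 23.4 FPKM among knockout libraries; -0.54 ± 0.10 (SE), adjusted p = 0.00422), which charges glycine tRNAs in the cytosol and in mitochondria. Gars did not pass in the PAD4 set (-0.39 ± 0.27 (SE), adjusted p = 0.36). Without any 1 of the knockout libraries of the IL-33 set, 2 to 5 synthetase genes and 3 to 5 RNA processing genes were higher, and 0 RNA processing genes were lower.

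Of the mitochondrial translation genes, 1 was higher (Gfm2, 0.84) and 1 lower (Mss51, -0.62) of 13 in the PAD4 set, and 6 were higher and 1 lower of 13 in the IL-33 set. The elongation factor genes Gfm1 and Tufm rose there by 0.84 and 1.14. The higher count of the IL-33 set was 3 without knockout library 2 or 3, and the lower count 0 without wild-type library 2 or any 1 of the knockout libraries. For the PAD4 set the higher count was 0 without wild-type library 1 or PAD4 knockout library 1, and the lower count 0 on leaving out any 1 library other than PAD4 knockout library 2. Of the regulators of mitochondrial biogenesis, 3 of 11 were higher in the PAD4 set, and 6 were higher and 1 lower of 12 in the IL-33 set. The coactivator gene Ppargc1a was at 0.964, 1.55 and 1.75 FPKM among wild-type and 4.8, 2.08 and 2.82 FPKM among knockout libraries in the PAD4 set (0.77 ± 0.25 (SE), adjusted p = 0.0358) and at 3.55, 5.25 and 5.24 FPKM among wild-type and 11.8, 14.2 and 12.2 FPKM among knockout libraries in the IL-33 set (1.28 ± 0.15 (SE), adjusted p = 0.000625). Sirt3, a mitochondrial deacetylase, rose by 0.95 and the nuclear receptor gene Esrrg by 0.59 in the PAD4 set, and Esrrg by 1.03 in the IL-33 set. The biogenesis count of the PAD4 set was 0 without PAD4 knockout library 1, wild-type library 1 or wild-type library 3, and 5 without PAD4 knockout library 2. That of the IL-33 set was 3 without knockout library 1, knockout library 2 or wild-type library 3. The counts of all these lists stand beside 8.89% of genes called higher and 8.79% lower in the PAD4 set, and 22.2% higher and 16.8% lower in the IL-33 set. With 1 library left out, calls over all genes moved as well. They ran from 352 to 1770 higher and 515 to 1764 lower in the PAD4 set (1243 and 1230 with all libraries). In the IL-33 set they ran from 2072 to 3903 higher and 1554 to 2662 lower (3226 and 2445 with all libraries).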

How the data were processed

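The authors deposited FPKM values per gene as a table for each set, per the file headers. Strand-specific libraries were made after poly(A) selection, per the labels' protocols. Tools listed without versions in the submitters' processing notes are HISAT2 and StringTie, cutadapt and FastQC, and edgeR and DESeq2. No coordinates are printed, since the genome build is not given in the sources used here. The same holds for the annotation, the strand setting and the treatment of reads with several matches. Depth is unknown: for genes below 0.2 FPKM, ratios between libraries did not fall on steps that whole reads would give (at most 1.18% to 1.98% of them shared a bin).

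GENCODE M21 gave symbols to 30212 of 32199 and 29690 of 31719 genes, and member lengths, gene order and sequences. The number of value columns that belong to no sample was 0. Within each table limma 3.58.1 (R 4.3.3, eBayes with trend) was fitted to log2(FPKM + 1) over genes with a mean of at least 0.5 FPKM (13986 and 14513), with Benjamini-Hochberg adjustment over all of them. Tests are two-sided. For the difference between comparisons, all 12 libraries entered 1 fit with 4 group means (13010 genes). Shares were compared by an exact permutation test. The log2(FPKM + 1) scale understates changes of low genes. The limma steps were tested on simulated data. P-values measure the spread between the 3 libraries of each group.

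The members, the gene lists and the tests were chosen with earlier results of these data known. Genes are named if they are members called in either comparison or in their difference, both rRNAs, mt-Co1, mt-Cytb, mt-Atp6, mt-Nd1, mt-Nd4, mt-Nd6, up to 2 genes per nuclear list and comparison with the smallest p among those called, Polrmt, Tfam, Lrpprc, Mtpap, Ppargc1a, Padi4 and Il33. Other members and the nuclear copies were named after their values were seen. Alternatives were no filter or a mean of at least 2 FPKM, pseudocounts of 0.1 and 0.5, median-of-ratios scaling, a common FPKM sum (TPM), a common nuclear sum, quantile normalization, array weights, no trend, a block on replicate number and each library left out. Adding nuclear copies to their members, leaving them out of the sum and scaling by the mitochondrial mRNA sum were added after seeing the data.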

Additional observations from a re-analysis of the deposited data

Results flagged for a closer look

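The aspartate tRNA mt-Td is singled out because its change differed between the comparisons by the test of the difference itself. The PAD4 change minus the IL-33 change was -1.14 ± 0.33 (SE) on the log2(FPKM + 1) scale (limma adjusted p = 0.0343). mt-Td was at 5.94 to 11.7 FPKM in wild type and 8.33 to 13.6 FPKM in the knockout of the PAD4 set, with overlap. In the IL-33 set it was at 0.194 to 0.665 FPKM in wild type and 2.11 to 3.05 FPKM in the knockout, without overlap. mt-Td of the IL-33 set passed the filter of 0.5 FPKM only through the knockout libraries, the group where it is high, and the difference was not tested with a mean of at least 2 FPKM. The 2 tables may have been normalized separately, which the sources used here do not say. The call was lost with median-of-ratios scaling and when any of 8 of the 12 libraries was left out.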

How the results depend on the processing

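In the PAD4 set, members called higher and lower (3 and 3) were 0 and 0 with no filter, and 0 and 1 with median-of-ratios scaling. With no filter limma called 0 of 32199 genes. At an unadjusted p under 0.05 there were 10 members and 6053 of all 32199 genes. Median-of-ratios scaling called 1817 genes higher and 1602 lower of 13928. Lower members were 5 with TPM scaling, with quantile normalization and with mitochondrial mRNA sum scaling, and 7 with array weights, whose estimate did not reach its convergence tolerance. Lower calls over all genes were 1230 of 13986 in the main fit and 1205 of 14014 with TPM scaling. They were 1786 of 13986 with quantile normalization, 807 of 14050 with mRNA sum scaling and 2939 of 13986 with array weights. In the IL-33 set (5 and 1), 2 were higher with no filter and 8 with quantile normalization, and lower members were 2 with TPM scaling, 3 with quantile normalization and 2 with mitochondrial mRNA sum scaling. Over all genes of that set, 3226 were higher and 2445 lower of 14513 in the main fit. With no filter 2944 of 31719 were higher, and with quantile normalization 3185 were higher and 3064 lower of 14513. Lower were 2016 of 14519 with TPM scaling and 1723 of 14547 with mRNA sum scaling. The difference (1 member) gave 2 with the nuclear sum and 0 with median-of-ratios scaling or a mean of at least 2 FPKM, a filter that leaves mt-Td and mt-Tf of the IL-33 set untested. Same-numbered libraries did not deviate together (correlations of -0.15 to 0.13), and not every library correlated best with its own number, so the numbers do not pair them. A replicate block gave 1 higher and 2 lower in the PAD4 set and 7 higher and 1 lower in the IL-33 set. Over all genes it called 951 higher and 1033 lower of 13986, and 3065 higher and 2271 lower of 14513. The cause of these shifts was not tested.

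Signs turned for these changes that had not passed. Quantile normalization gave -0.35 for mt-Rnr1, -0.16 for mt-Ti and 0.065 for mt-Atp6 in the PAD4 set and 0.083 for mt-Nd6 in the IL-33 set. mt-Atp6 was 0.0072 with mRNA sum scaling in the PAD4 set and 0.014 with the nuclear sum in the IL-33 set. The difference was -0.35 for mt-Tf and 0.80 for mt-Tg with a pseudocount of 0.1, and 0.064 for mt-Tm with median-of-ratios scaling.

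Leaving out each library in turn gave 0 to 3 higher and 1 to 2 lower members in the PAD4 set, with 0 higher without wild-type library 1 or 3, 1 lower without wild-type library 1 and 1 higher without PAD4 knockout library 3. Calls over all genes moved too, from 1243 higher and 1230 lower of 13986 in the main fit. Without wild-type library 1 they were 352 higher and 712 lower of 14110. Higher calls were 808 of 13780 without wild-type library 3 and 1073 of 14029 without PAD4 knockout library 3. In the IL-33 set leaving out each library gave 3 to 12 higher and 1 to 6 lower, with 12 higher without wild-type library 1, 3 higher and 2 lower without knockout library 1 and 6 lower without wild-type library 3. Over all genes, 2831 of 14608 were higher without wild-type library 1, and 2228 of 14467 were lower without wild-type library 3. Without knockout library 1, 2072 were higher and 1554 lower of 14453. The difference gave 0 to 5, with 5 without wild-type library 3 and 2 without knockout library 2 of the PAD4 set, 2 without wild-type library 3 of the IL-33 set, and 0 without wild-type library 1 or 2 or knockout library 1 or 3 of the PAD4 set or wild-type library 1 or knockout library 1 or 3 of the IL-33 set. Ranges that crossed 0 were -0.014 to 0.19 for mt-Rnr2, -0.038 to 0.23 for mt-Ti, -0.022 to 0.42 for mt-Td and -0.14 to 0.065 for mt-Atp6 in the PAD4 set. In the IL-33 set they were -0.13 to 0.019 for mt-Co1 and -0.14 to 0.043 for mt-Atp6. For the difference they were -0.12 to 0.46 for mt-Tf, -0.35 to 0.32 for mt-Tm and -0.66 to 0.056 for mt-Tg. The share of the FPKM sum, knockout minus wild type, ran from -2.83 to 0.98 percentage points in the PAD4 set and from -0.42 to 2.14 in the IL-33 set.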
